A study of Homo sapiens with 6 samples.

Results

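The genes described here encode the nuclear RNA exosome's nucleases and cofactors and the adaptors that bring RNA to it: EXOSC10, DIS3, C1D, MPHOSPH6, SKIV2L2, ZFC3H1, ZCCHC8, RBM7, ZCCHC7 and PAPD5. They were taken by symbol from the deposited count table, where 10 of 10 were present among 26364 genes. ZFC3H1 was chosen by its measured fold change, among the largest increases after immunoprecipitation (IP) of phosphorylated UPF1 (p-UPF1) over the control. The other 9 were listed for their function, with results of that contrast already known. Their values in that contrast are therefore a description, and no p-value is given for any of the 10 genes.

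All 6 libraries came from HEK293T, an established line of transformed human embryonic kidney cells, and all cells, controls included, had received 200 nM okadaic acid for 3 h, which inhibits the phosphatases that act on UPF1. The 3 libraries titled pUPF1 (replicates 3, 6 and 9) hold RNA recovered with an antibody against p-UPF1. The 3 titled pre-IP (replicates 1, 4 and 7) carry a rabbit IgG antibody label, so the labels leave it unclear whether they are RNA from before the IP or from a mock IP. No library without okadaic acid was analysed here. Nothing in the labels ties the replicates to separate cultures, so a p-value here covers only the variation among the libraries, part or all of which may be technical.

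The exosome is a ring of subunits that have no catalytic activity of their own in human cells, joined by nucleases that degrade RNA from its 3' end. In the nucleus the helicase MTR4 (SKIV2L2) unwinds RNA and feeds it in, and adaptor complexes built on MTR4 choose the RNA: NEXT for short-lived unadenylated transcripts, PAXT for polyadenylated nuclear RNA, and TRAMP for RNA that it tags with an oligo(A) tail, mainly in the nucleolus. None of this is measured here. The libraries record fragments of the mRNAs that encode these proteins, and nonsense-mediated mRNA decay (NMD), in which UPF1 is phosphorylated, acts on mRNAs while they are translated.

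NMD can be set off when a ribosome stops at a termination codon well upstream of an exon-exon junction, though this is not its only trigger. The stop codons of 3 of these mRNAs are therefore shown as examples, with the stop in capitals and 12 bases on each side. They are from the GENCODE 29 transcripts (GRCh38), for the principal protein-coding transcript and for the 1 transcript of each gene annotated as an NMD substrate.
ZFC3H1, principal transcript: agcaagaatcacTGAacactgggtgca
ZFC3H1, NMD transcript: acctggaaaatgTAAtgcaacaatcat
DIS3, principal transcript: aagcttggaaaaTAGctatattcaaca
DIS3, NMD transcript: gacaggcatctcTGAcgtatgctgaag
EXOSC10, principal transcript: tggccacagagaTAGtcctggaagaca
EXOSC10, NMD transcript: ctggagagagtgTAGagacggggtttc
The principal stops end 138, 84 and 31 bases after the last junction in ZFC3H1, DIS3 and EXOSC10. The NMD stops end 787, 1028 and 129 bases before it. The counts are per gene and cannot tell these transcripts apart. Of the 10 genes, 7 have an annotated NMD transcript (ZCCHC8, ZCCHC7 and C1D have none). Among those tested the figure is 5 of 7, against 46.2% of the tested protein-coding genes. Among those protein-coding genes the median log2 fold change was 0.20 with an annotated NMD transcript and 0.11 without one. SKIV2L2, PAPD5, MPHOSPH6 and RBM7 also have such a transcript, and their pUPF1 and pre-IP levels overlapped. In the 3 genes shown, every pUPF1 library lay above every pre-IP library. They are therefore not a neutral choice, and nothing about a rise is read from their stops.

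Depth limited every value below. Libraries held 600244 to 1179369 counts in pre-IP and 905926 to 2057647 in pUPF1, and the 10 genes together had 211, 34 and 160 counts in the pre-IP libraries (replicates 1, 4 and 7) and 1571, 1143 and 734 in the pUPF1 ones (replicates 3, 6 and 9), the order kept throughout. Levels are counts per 1000000 (CPM) on library sizes scaled by TMM, a method that sets the bulk of genes equal, and a count of 0 allows up to 10.7 CPM in pre-IP replicate 4 and 5.18 CPM in pre-IP replicate 7. Such limits, and the 95% intervals given below for ratios of summed counts, cover counting error only. Of 7 genes taken as characteristic of HEK293T cells, 7 had counts, with VIM the most counted and PAX2 at 0 in pre-IP and 9 counts in pUPF1. Of 12 markers of blood, liver, fibroblast, muscle and epidermis, 9 had no count in any library, and the others (HBB, ALB and COL1A1) had 6 counts in pre-IP and 24 in pUPF1. UPF1 itself, whose protein the antibody binds, had 21, 5 and 28 counts in pre-IP and 310, 236 and 241 in pUPF1.

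As a share of all counts, the 10 genes took 0.0179%, 0.00566% and 0.0169% in pre-IP and 0.0763%, 0.0621% and 0.0810% in pUPF1. The groups did not overlap, and the mean share was 5.42-fold higher in pUPF1 (0.0135% ± 0.0068 against 0.0732% ± 0.0098, SD, n = 3). The 29 other genes of the pathway listed further on had a 2.94-fold higher mean share (0.0565% ± 0.0111 against 0.166% ± 0.0279). The sum over the 10 genes includes ZFC3H1, chosen for its rise in this contrast, so nothing is read from the difference between these folds. Summed over libraries, ZFC3H1 and DIS3 gave 1.98% and 24.2% of the counts of the 10 genes in pre-IP. In pUPF1 they gave 13.1% and 38.8%. Most tested genes had a larger share in pUPF1: with library totals alone the median log2 fold change of all tested genes was 1.63, and with TMM it was 0.10.

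Of the 10 genes, 7 had enough counts for the test across the whole table (edgeR's quasi-likelihood F-test, Benjamini-Hochberg 0.05). ZFC3H1 and DIS3 were called higher in pUPF1 and 0 were called lower, with 0 lower also at an unadjusted p under 0.05 and by DESeq2 and limma-voom. In all the data 19.7% of 8070 tested genes were called: 8.81% of the tested genes were higher and 10.9% lower. Since the contrast helped to choose the genes, nothing is read from that comparison. A gene well counted in pUPF1 alone can pass the filter on low counts, so the 7 are not a fair sample of the 10. C1D, MPHOSPH6 and RBM7 did not pass it. The median log2 fold change of the 7 was 0.90, beside 0.10 for all tested genes. Without pre-IP replicate 4, where 9 of the genes could be tested, it was 0.22 beside 0.16. With no filter on low counts, where all 10 were fitted, it was 0.51 beside 0.41.

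**Figure D1:**
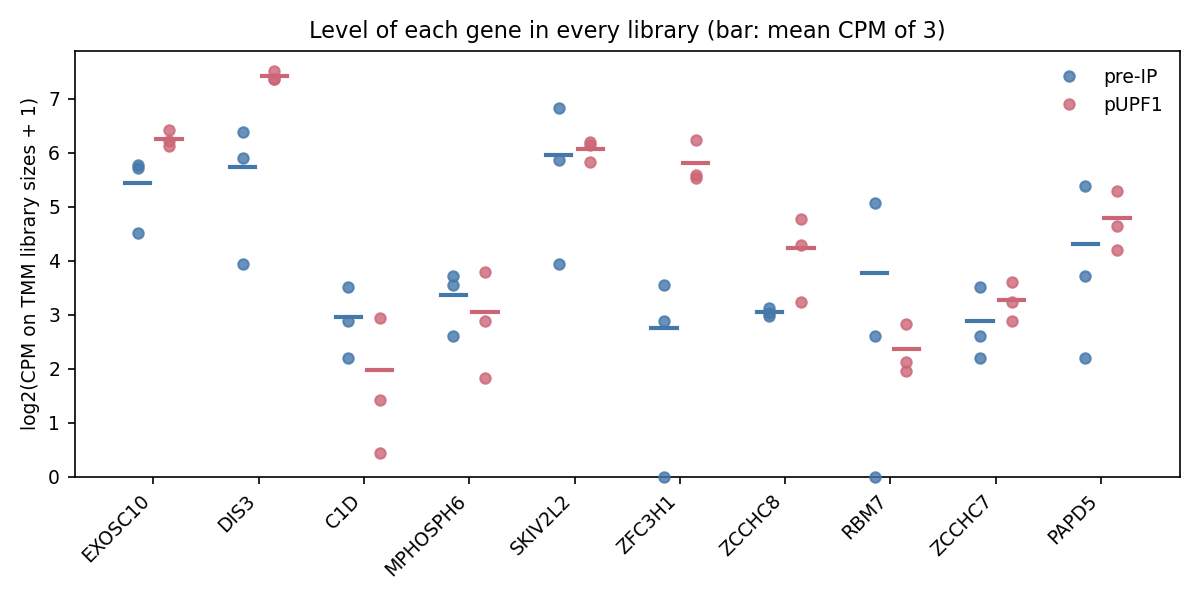
Level of each of the 10 genes in the 6 libraries, as log2(CPM + 1) on TMM library sizes; points are libraries, bars the log2 of 1 plus the mean CPM of 3. For ZFC3H1, DIS3, EXOSC10 and ZCCHC8 every pUPF1 point lies above every pre-IP point, and RBM7 and ZFC3H1 have a pre-IP library at 0.

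Of the nucleases, DIS3 was called and EXOSC10 was not, and the difference between their changes was not tested. DIS3, which degrades RNA processively and also cuts it internally, had 46, 4 and 48 counts in pre-IP and 541, 500 and 295 in pUPF1, or 58.9, 14.3 and 82.9 CPM against 165, 182 and 165 CPM. The groups did not overlap, and the pre-IP libraries were far more spread than the pUPF1 ones (52.0 ± 34.8 and 171 ± 9.76 CPM, SD, n = 3). Its log2 fold change was 1.62 (SE 0.38). DIS3 kept its call in 17 of 18 alternative settings and lost it when the trend of fold change with transcript length was removed (0.81). EXOSC10, the exosome's other nuclear exonuclease, concentrated in the nucleolus, had 21.8, 53.7 and 51.8 CPM in pre-IP and 85.2, 73.5 and 68.8 CPM in pUPF1, from 62 and 604 summed counts. Its groups did not overlap either, but its log2 fold change of 0.90 (SE 0.37) was not called. The pre-IP values rest on 17, 15 and 30 counts, and the gap between the groups was not set against counting error. With library totals alone it was 2.46 and called.

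The small cofactors of EXOSC10 were barely counted. C1D, which binds the amino-terminal part of EXOSC10, had 5, 1 and 6 counts in pre-IP and 22, 1 and 3 in pUPF1, and the ratio of summed counts on TMM sizes was 0.455 (95% interval 0.222 to 0.99). The libraries overlapped, and 22 of its 26 pUPF1 counts came from replicate 3. The annotation also lists 5 pseudogenes of C1D, none of which has a row in the table, so reads could be shared with them. MPHOSPH6, which helps to dock MTR4 on the exosome, had 4, 3 and 7 counts in pre-IP and 21, 7 and 23 in pUPF1 (ratio 0.765, 95% interval 0.417 to 1.5). Its groups overlapped, and the interval includes both a fall and a rise.

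The helicase gene was not called. SKIV2L2 had the largest summed count of the 10 genes in pre-IP, 125, which replicate 1 decides: EXOSC10 led in replicate 4 and DIS3 in replicate 7. It had 88, 4 and 33 counts there and 238, 153 and 125 in pUPF1. On TMM sizes these were 113, 14.3 and 57.0 CPM against 72.7, 55.7 and 69.9 CPM, so the pUPF1 libraries lay within the range of the pre-IP ones. The log2 fold change was 0.00038 (SE 0.55), which leaves room for a change of either sign. It was below 0 in 7 of 18 alternatives and called higher in 1, with library totals alone (1.49).

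ZFC3H1, the zinc-finger protein that links MTR4 to the nuclear poly(A)-binding protein in PAXT, had 5, 3 and 0 counts in pre-IP and 243, 129 and 81 in pUPF1. These are 6.40, 10.7 and 0 CPM in pre-IP and 74.2, 47.0 and 45.3 CPM in pUPF1. Every pUPF1 library was above every pre-IP library by a wide margin. The ratio of summed counts was 11.9 (95% interval 5.98 to 27.7), and the fitted log2 fold change was 3.47 (SE 0.63), at rank 103 of 8070 tested genes. Over the 18 alternatives the value ran from 2.87 to 4.95. All of these rest on 8 pre-IP counts or fewer and on the contrast that chose the gene, so they say nothing about how stable the rise is.

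Of the NEXT genes, ZCCHC8 was tested and not called, and RBM7 had too few counts. ZCCHC8, the scaffold of NEXT, had 6, 2 and 4 counts in pre-IP and 61, 72 and 15 in pUPF1, or 7.68, 7.16 and 6.91 CPM against 18.6, 26.2 and 8.39 CPM. The groups did not overlap, though pUPF1 replicate 9 was only slightly above pre-IP. Even a count of 0 allows up to 10.7 CPM in pre-IP replicate 4, above the 8.39 CPM of pUPF1 replicate 9. The separation is therefore not firm at this depth. The log2 fold change of ZCCHC8, 1.29 (SE 0.69), was not called, and the ratio of summed counts was 2.59 (95% interval 1.44 to 5.13). RBM7, the RNA-binding subunit of NEXT, had 4, 0 and 19 counts in pre-IP and 20, 8 and 6 in pUPF1. The ratio of its summed counts was 0.310 (95% interval 0.178 to 0.552), an interval that leaves out the spread between libraries. Most of its pre-IP counts came from replicate 7, and the pUPF1 libraries (6.11, 2.91 and 3.36 CPM) lay within the pre-IP range of 0 to 32.8 CPM.

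Neither TRAMP gene was called. PAPD5, the poly(A) polymerase that adds the oligo(A) tail, had 40.9, 3.58 and 12.1 CPM in pre-IP and 38.2, 17.5 and 24.0 CPM in pUPF1 (log2 fold change 0.32, SE 0.58). The groups overlapped, with pre-IP replicate 1 the highest of the 6 libraries. ZCCHC7, the zinc-knuckle protein of TRAMP, had 5.12, 3.58 and 10.4 CPM in pre-IP and 6.41, 8.37 and 11.2 CPM in pUPF1 (0.36, SE 0.75), and its groups overlapped too. On library totals alone PAPD5 had 1.80 and ZCCHC7 1.89, close to the median of 1.63 for all tested genes on that scale.

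In all, 4 of the 7 tested genes (ZFC3H1, DIS3, EXOSC10 and ZCCHC8) had groups that did not overlap, each higher in pUPF1. Of all tested genes, 21.9% were separated in that direction and 39.7% in either. ZFC3H1 was chosen by this contrast, and the other genes were listed with its results known. The filter can also pass genes counted in pUPF1 alone. Nothing is therefore read from this comparison, and the separation of ZCCHC8 is not firm at this depth. That of EXOSC10 rests on 15 to 30 counts in each pre-IP library and was not set against counting error.

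**Figure D2:**
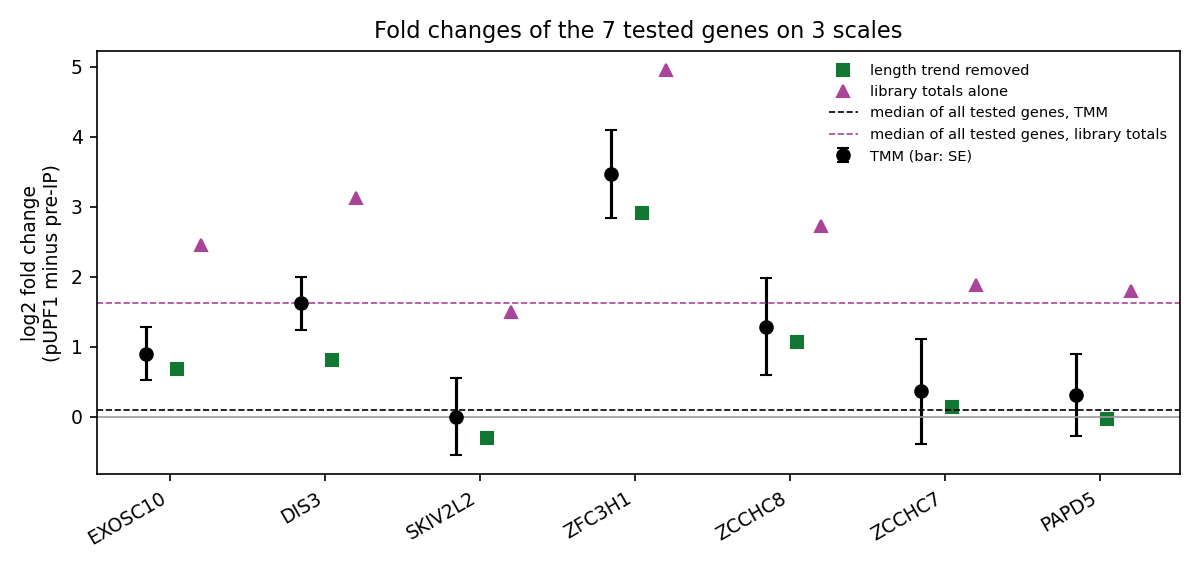
Log2 fold changes of the 7 tested genes (pUPF1 minus pre-IP) with TMM scaling and its SE, with the length trend removed, and with library totals alone; dashed lines are the medians of all tested genes, 0.10 with TMM and 1.63 with library totals. ZFC3H1 lies highest on all 3 scales, and SKIV2L2 lies below the median of all genes with TMM and with library totals.

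The makeup of the counts among the 10 genes needs no scaling between libraries. DIS3 took 21.8%, 11.8% and 30% of them in pre-IP and 34.4%, 43.7% and 40.2% in pUPF1, where it was the most counted gene of each library. ZFC3H1 went from 2.37%, 8.82% and 0% to 15.5%, 11.3% and 11.0%. SKIV2L2 took 41.7%, 11.8% and 20.6% in pre-IP and 15.2%, 13.4% and 17% in pUPF1, so its groups overlapped. EXOSC10 held 17.8%, 17.7% and 16.8% of the pUPF1 counts, a narrow range beside 8.06%, 44.1% and 18.8% in pre-IP. For every 100 counts of SKIV2L2, its PAXT partner ZFC3H1 had 5.68, 75 and 0 counts in pre-IP and 102.1, 84.3 and 64.8 in pUPF1. The value of 75 is 3 counts against 4 in pre-IP replicate 4, and with it the groups overlapped. Summed over libraries the figure was 6.40 in pre-IP and 87.8 in pUPF1.

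**Figure D3:**
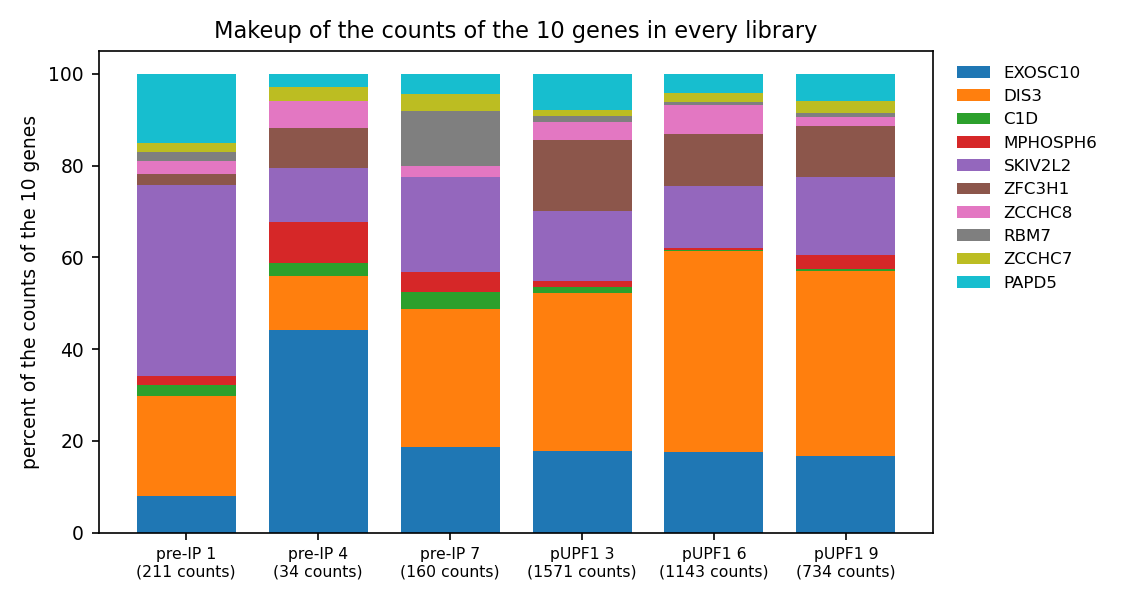
Percent of the counts of the 10 genes taken by each gene in each library, with the number of counts under each bar. DIS3 holds 34.4% to 43.7% of the counts in pUPF1 and ZFC3H1 11.0% to 15.5%, while the pre-IP bars vary more and rest on 34 to 211 counts.

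Per kilobase of exon (union of all annotated exons) and per 1000000 counts of the library, the order of levels in pUPF1 was DIS3 (26.5 ± 3.13, SD, n = 3), EXOSC10 (21.2 ± 2.49), SKIV2L2 (17.1 ± 4.19) and ZFC3H1 (9.57 ± 2.5). MPHOSPH6 (6.00 ± 5.06), PAPD5 (5.50 ± 2.15), ZCCHC7 (3.74 ± 1.58), ZCCHC8 (3.12 ± 1.24), C1D (1.35 ± 1.47) and RBM7 (0.875 ± 0.342) followed. Among neighbours in this order, only DIS3 and EXOSC10, and SKIV2L2 and ZFC3H1, had ranges over the libraries that did not overlap. Compared within each pUPF1 library, EXOSC10 was also above SKIV2L2, PAPD5 above ZCCHC7 and ZCCHC8 above C1D every time. The other neighbours changed order between libraries. With the longest transcript as the length, 2808 bases for EXOSC10 in place of 6003, EXOSC10 came first (45.2) and DIS3 next (27.0). In pre-IP the order began with SKIV2L2 (5.89 ± 5.19), EXOSC10 (3.95 ± 1.46) and DIS3 (2.97 ± 2.11) and ended with ZFC3H1 (0.318 ± 0.279). By mean level ZFC3H1 thus stood at rank 10 of 10 in pre-IP and at rank 4 in pUPF1, with both lengths. The pre-IP rank rests on 8 counts and did not hold in every library. Per kilobase of union exon, ZFC3H1 was the lowest in replicate 7 alone, where it had 0 counts. RBM7 was lower in replicate 1 (0.430 against 0.438). In replicate 4 PAPD5, ZCCHC7, ZCCHC8, C1D and RBM7 were all below the 0.517 of ZFC3H1.

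ZFC3H1 and DIS3 also have the longest principal transcripts of the 10, 7285 and 10604 bases, against 1103 (MPHOSPH6) to 4635 (PAPD5). By the longest annotated transcript, ZFC3H1 (7597 bases) is close to PAPD5 (7233) and RBM7 (6725), and DIS3 stays at 10604. Most of the DIS3 transcript is 3' UTR, 7626 bases for a coding region of 2874, while ZFC3H1 is mainly coding, with 5967 coding bases and a 3' UTR of 956. Length went with the fold change over the whole table. Of the tested protein-coding genes, 16.0% of the long transcripts (4648 bases and more) were called higher and 2.39% lower, against 3.32% higher and 16.4% lower of the short ones (up to 2673 bases), when they were split by length into 3 groups of nearly equal size. The other 5 tested genes, EXOSC10, SKIV2L2, ZCCHC8, ZCCHC7 and PAPD5, lie in the middle group, where 7.97% were called higher and the median log2 fold change was 0.21. Among the long transcripts, whose median was 0.50, ZFC3H1 ranked 40 of 2556 and DIS3 374. With the length trend removed ZFC3H1 had 2.92. Since ZFC3H1 was chosen by its fold change, its rank and this value are a description only.

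**Figure D4:**
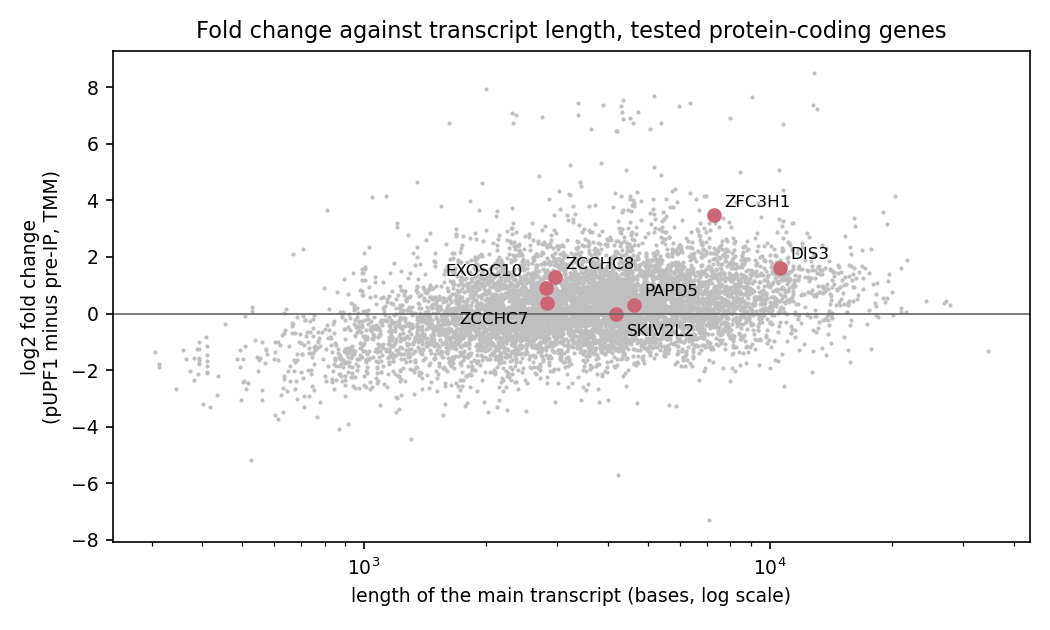
Log2 fold change with TMM against the length of the principal transcript (log axis) for the tested protein-coding genes (grey) and the 7 tested exosome genes (red). The grey cloud rises with length, and DIS3 (10604 bases) and ZFC3H1 (7285 bases) lie to the right. ZFC3H1, which was chosen by its fold change, lies well above the cloud's middle at its length.

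Reads from overlapping genes cannot be told apart, as the strand setting of the counting is not given in the sources used here. ZFC3H1 shares 961 exonic bases with THAP2 on the other strand, which had 6 counts in pre-IP and 21 in pUPF1, and the part of these reads in the counts of ZFC3H1 was not tested. DIS3 shares 1180 with BORA, which had 31 and 79 counts, and 38 with PIBF1, which had 19 and 153. EXOSC10 shares 2196 with an antisense RNA that has no row in the table. SKIV2L2 shares 481 with PLPP1 on the other strand. RBM7 shares 482 with C11orf71 on the other strand (9 and 7 counts) and 431 with AP002373.1 on its own strand. The annotation places small RNA genes in introns of ZFC3H1, ZCCHC8 and ZCCHC7, none of them touching an exon.

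The other genes of the pathway were read from a list of 29, of which 27 were tested. EXOSC7 and EXOSC8 were lower in pUPF1 and 0 were higher, where 10.9% of all tested genes were lower and 8.81% higher, so the pathway's calls are no result about it. The median log2 fold change was 0.025, beside 0.10 for all tested genes. At an unadjusted p under 0.05, 4 were higher and 3 lower. DESeq2 called 0 higher and 1 lower, and limma-voom 1 higher and 3 lower.

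Of the 9 genes of the ring, 8 were tested and 2 fell, relative to the bulk of genes. Their log2 fold changes ran from -1.55 to 0.092 (median -0.64). EXOSC7 had 26, 13 and 26 counts in pre-IP and 52, 34 and 24 in pUPF1, or 41.6 ± 7.25 and 13.9 ± 1.80 CPM (log2 fold change -1.55, SE 0.44, adjusted p = 0.0204). Its groups did not overlap on TMM sizes but did as shares of the library, and with library totals alone its log2 fold change was -0.0036. EXOSC8 had 48.1 ± 24.3 and 20.7 ± 6.02 CPM with overlapping groups (-1.29, SE 0.44, adjusted p = 0.0498). Its call held in 3 of 18 alternatives and that of EXOSC7 in 13 (adjusted p = 0.0158 to 0.702 and 0.00492 to 0.995). With the length trend removed EXOSC7, whose principal transcript has 1055 bases, had -0.75 (adjusted p = 0.276), and EXOSC8, with 1198 bases, had -0.66 (adjusted p = 0.358), neither called. EXOSC7 was also no longer called when any 1 of the pUPF1 libraries was left out, and EXOSC8 when any library except pre-IP replicate 4 was. EXOSC9, the ring gene with the largest count summed over the 6 libraries, though not within pre-IP, had 47.5 ± 20.9 and 46.9 ± 3.95 CPM (0.025, adjusted p = 0.971). With library totals alone 0 of the 27 pathway genes were called lower and 18 were called higher.

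Among the remaining partners no gene passed the threshold. In PAXT, RBM26 had 53.1 ± 21.4 and 75.6 ± 11.4 CPM (0.49, adjusted p = 0.345), and the nuclear poly(A)-binding protein PABPN1 had 1 and 4 counts and was not tested. ZC3H3, a zinc-finger protein of PAXT named here after its values were seen, had 0, 0 and 1 counts in pre-IP and 20, 21 and 13 in pUPF1 (ratio 11.3, 95% interval 1.95 to 456, adjusted p = 0.0625). DIS3L2, a cytoplasmic relative of DIS3 that prefers uridylated RNA, was named in the same way, with 3 summed counts against 97 (ratio 6.79, 95% interval 2.26 to 33.5, adjusted p = 0.0815). The limits that counts of 0 allow in pre-IP reach the levels of ZC3H3 in every pUPF1 library and of DIS3L2 in replicate 9, so their groups were not separated at this depth. DIS3L, the nuclease of the cytoplasmic exosome, had a value of 0.86 on the log2 scale (adjusted p = 0.248), and PAPD7, the paralog of PAPD5, one of 1.16 (adjusted p = 0.107). The 5 genes of the cap-binding complex and ARS2 ran from -0.58 to 0.80, with NCBP1, the large cap-binding subunit, at 63.8 ± 11.8 and 74.98 ± 9.92 CPM (0.21, adjusted p = 0.685). NVL, a nucleolar partner of MTR4, had -0.42 (adjusted p = 0.445), HBS1L, counted with the cytoplasmic SKI complex, -0.12 (adjusted p = 0.831), and XRN2, the nuclear exonuclease that works from the 5' end, -0.44 (adjusted p = 0.370).

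**Figure D5:**
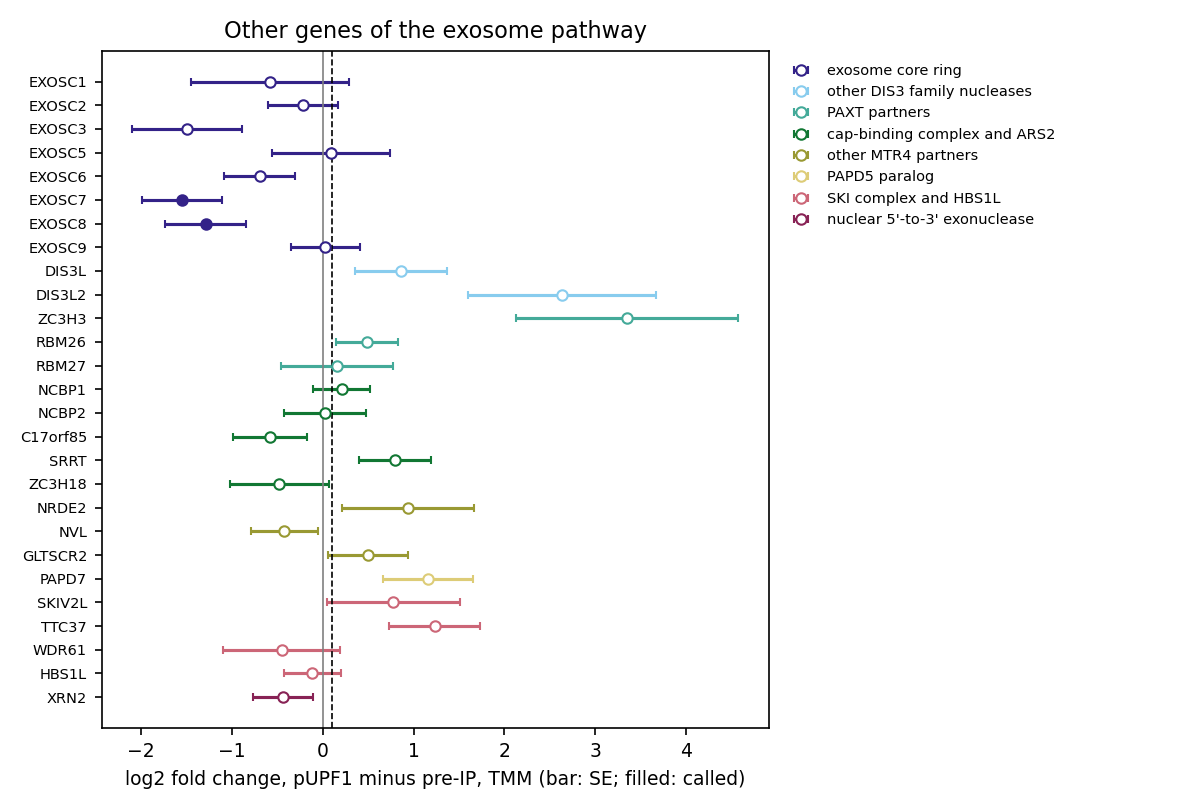
Log2 fold changes with their SE for the 27 tested other genes of the pathway, coloured by complex; filled points passed the threshold and the dashed line is the median of all tested genes (0.10). EXOSC7 and EXOSC8 are the filled points, both below 0, and ZC3H3 and DIS3L2 lie furthest right with the widest bars.

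Over the 6 libraries, the tested genes whose log2 CPM lay nearest to that of ZFC3H1 were DGKD, BCR, UBL4A, AKNA and MED12, with root mean square differences of 0.475, 0.492, 0.558, 0.653 and 0.655. They were picked for this likeness. DGKD, a diacylglycerol kinase, had 13 counts in pre-IP and 397 in pUPF1, and MED12, a Mediator subunit, 16 and 390. None of the genes of the exosome pathway was among the 5.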

How the data were processed

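The authors deposited 1 table of whole-number read counts per gene symbol with 6 library columns, not normalized. Per the submitters' processing notes, reads were handled with cutadapt 1.15, STAR 2.5.2b, and Subread 1.5.0p3 with its featureCounts, on hg19. Annotation, strand and multi-mapping: not given in the sources used here. Per the labels' protocols, dephosphorylated RNA was ligated to adapters and amplified by PCR, with no molecular identifiers described. Counts were fitted over the whole table with edgeR 4.0.16 (R 4.3.3) by the quasi-likelihood F-test with TMM scaling. The filter was filterByExpr at a count of 10 or more, with Benjamini-Hochberg adjustment at 0.05. The fit was first run on simulated counts. These held no broad shift in makeup between the groups, so that check does not bear on the scaling. CPM are on TMM library sizes. The SE is the log2 fold change divided by the square root of F. Ratios of summed counts have exact (Clopper-Pearson) 95% intervals. Transcript structure came from GENCODE 29 on GRCh38, matched by symbol (length and GC for 99.2% of tested genes), so no coordinates are given. The members and lists were chosen with earlier results of these data known. The named genes were the 10 members, pathway genes past the threshold, the most counted gene of each pathway list, the 5 nearest to ZFC3H1, and UPF1. ZC3H3, DIS3L2 and PABPN1 were named after their values were seen. The 18 alternatives were 3 other scalings, the 10 most counted genes left out, 2 other filters, DESeq2 1.42.0, limma-voom (limma 3.58.1), robust quasi-likelihood, a replicate block, length or GC trend removed, and each library left out in turn.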

Additional observations from a re-analysis of the deposited data

How the results depend on the processing

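The count of called members was 2 with TMM and in 16 of 18 alternatives, 7 with library totals alone and 1 with the length trend removed. Leaving out each library gave 2 each time. The count of other pathway genes called was 2 with TMM and 1 with RLE or upper-quartile scaling, the 10 most counted genes left out, DESeq2, robust quasi-likelihood, or the length or GC trend removed. It was 4 with limma-voom, 18 (all higher) with library totals alone, and 0 to 3 with each library left out, 0 without any 1 of the pUPF1 libraries. The groups share no replicate number. A replicate block that joins libraries by their numbers (1 to 3, 4 to 6, 7 to 9), which no label states to be pairs, gave 2 members and 2 other pathway genes, 1 higher and 1 lower. Over all genes calls went from 1591 to 5030 with library totals alone, 995 with the length trend removed, and 791, 950 and 908 without pUPF1 replicate 3, 6 or 9. With the longest transcript as length, 4 of the 10 members kept their rank in pre-IP and 8 in pUPF1.

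With library totals alone EXOSC8, called lower with TMM (-1.29), reversed to 0.24, not called. The other changes of sign were of genes not called with TMM and of the pathway median. On library totals XRN2 had 1.16, NVL 1.17 and HBS1L 1.39. HBS1L also had 0.058 with no filter, 0.0060 without pre-IP replicate 1 and 0.033 without pre-IP replicate 7. With a mean count of at least 20, SKIV2L2 had -0.053, EXOSC9 -0.038 and the median of the other pathway genes was -0.035. With the length trend removed SKIV2L2 had -0.30, PAPD5 -0.027 and NCBP1 -0.25. With the GC trend removed SKIV2L2 had -0.011 and the pathway median was -0.23. SKIV2L2 ran from -0.34 without pre-IP replicate 4 to 0.75 without pre-IP replicate 1, with -0.092 without pre-IP replicate 7, -0.068 without pUPF1 replicate 3 and -0.014 without pUPF1 replicate 9. PAPD5 ran from -0.013 without pUPF1 replicate 3 to 1.57 without pre-IP replicate 1. EXOSC9 ran from -0.28 without pre-IP replicate 7 to 0.28 without pre-IP replicate 4, and the pathway median from -0.062 to 0.23, with pre-IP replicates 7 and 1 left out. The cause of these shifts was not tested.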
